A study of Zea mays with 9 samples.

Results

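The genes described here are 7 lipoxygenase genes of maize, *lox1*, *lox3*, *lox4*, *lox5*, *lox6*, *ts1* and *lox10*, and the wound-induced proteinase inhibitor gene *MPI*, which together make 8 of the 45498 gene and precursor models counted. They were chosen by a list of gene IDs that was drawn up because *lox1* and *MPI* were high in *dcl1-2* P3 primordia, so the difference between *dcl1-2* and wild type in P3 is given below for all 8 genes as a description and without a test. Samples came from the apices of 14-day-old B73 seedlings that either were wild type or carried *dcl1-2*, a weak allele of the microRNA-processing enzyme gene *DCL1* that had been crossed into B73 over 4 generations; the wild-type plants were siblings of the mutants. In each genotype the central zone (CZ) of the shoot apical meristem, which holds the stem cells, and the third-youngest leaf primordia (P3) were cut out by laser microdissection. Each tissue of each genotype was read in 2 RNA-seq libraries, 8 in all, and each library pooled RNA from several apices and was linearly amplified. A small RNA library of wild-type apices was not used here.

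Lipoxygenases add oxygen to polyunsaturated fatty acids and so open the pathways to oxylipins. The 13-lipoxygenases of plastids feed 2 branches, in which allene oxide synthase, allene oxide cyclase and reductases make jasmonate, the hormone of wounding, and hydroperoxide lyase makes green leaf volatiles, while the 9-lipoxygenases start other oxylipins that have been studied in root, fungal and insect interactions. Jasmonate releases the transcription factor MYC2 from JAZ repressors of the TIFY family, and proteinase inhibitors such as MPI, which block the digestive enzymes of insects, are among the classic products of wounded leaves.

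Levels are given as RPM, reads of a gene per 1000000 reads counted in the library. The totals ran from 24753974 to 30327603 in the CZ libraries, which were read from 1 end, and from 8626824 to 10328582 in the P3 libraries, which were read from both ends, so 1 count is worth 0.0330 to 0.0404 RPM in a CZ library but 0.0968 to 0.116 RPM in a P3 library. The tissue labels fit their defining markers, with the meristem gene *kn1* at 969.5 to 1215 RPM in the CZ libraries but at 2.07 to 5.13 RPM in those of P3, and with the 7 YABBY genes, markers of leaf primordia, summing to 7.19 to 38.4 RPM among the CZ libraries and to 397 to 569 RPM among those of P3. *DCL1* itself was at 87.9 ± 5.43 RPM in *dcl1-2* CZ and 63.8 ± 2.25 RPM in wild-type CZ (SD, n = 2 each), and at 139 ± 3.10 RPM in *dcl1-2* P3 and 86.9 ± 19.4 RPM in wild-type P3. Since each sample is a piece of tissue, fewer cells of a type and less RNA per cell cannot be told apart.

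Wild-type CZ replicate 1 stood apart from the other 3 CZ libraries for several of the genes below. It held *YAB3*, *YAB5* and *YAB6* at 2.21, 3.40 and 2.97 RPM, whereas each of these was between 0 and 0.0793 RPM in the other CZ libraries, although its sum over all 7 YABBY genes, 19.98 RPM, was below the 38.4 RPM of wild-type CZ replicate 2. Whether this library's leaf gene reads have a part in the results below was not tested. For the 8 genes, fitted results that rest on it are given with and without it where counts remain. For the further genes of the lists below, no CZ fold change without it is given.

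**Figure D1:**
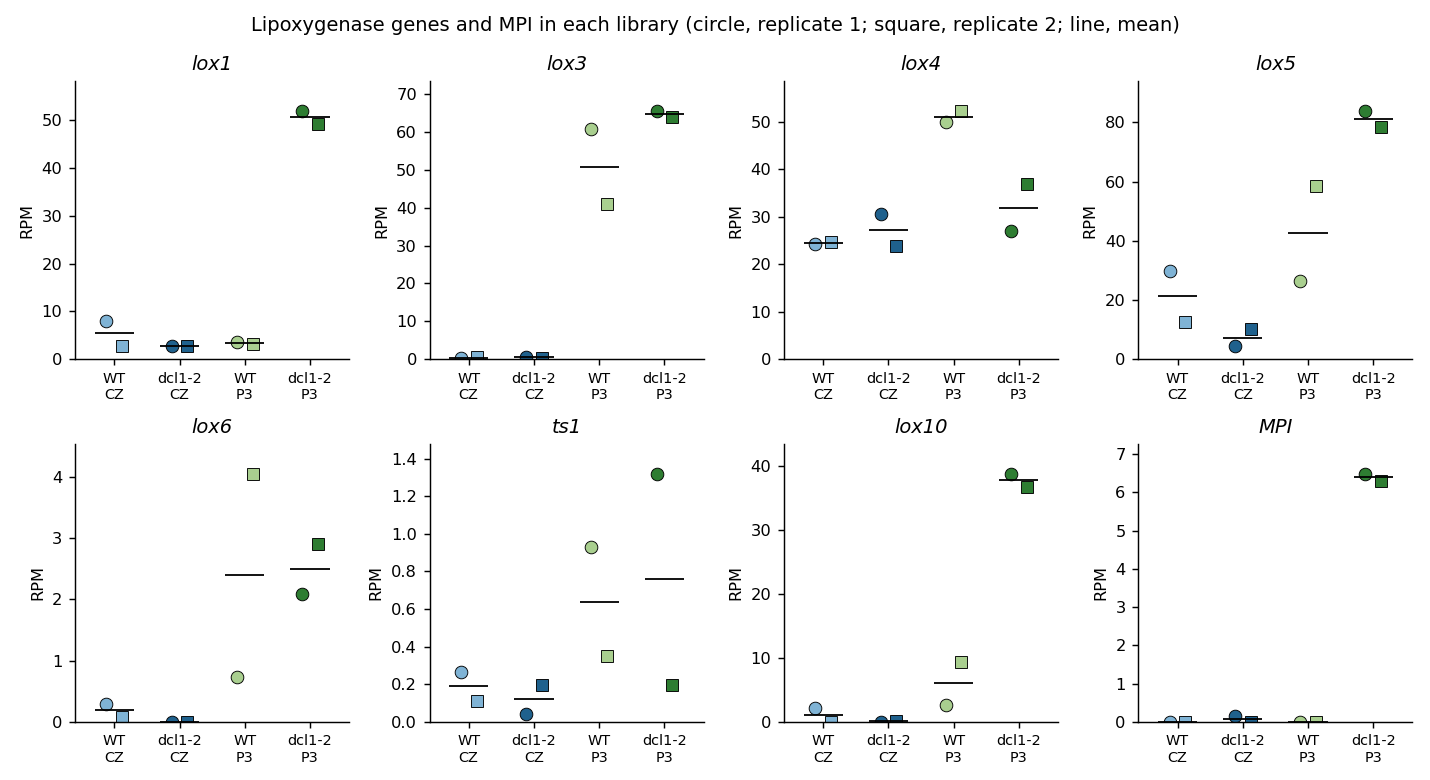
Level of each gene (y axis, RPM, linear and starting at 0, with its own scale in each panel) in the 8 libraries of the 4 groups (x axis); circles are replicate 1, squares replicate 2, lines the mean of the pair. The *dcl1-2* P3 libraries of *lox1* (52.0 and 49.3 RPM), *lox10* (38.8 and 36.7 RPM) and *MPI* (6.50 and 6.29 RPM) lie above all other libraries of those genes, whereas *lox3* is near 0 in the CZ and high in P3 of both genotypes, and *lox4* is present in all groups.

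*lox1* (GRMZM2G156861, B73 RefGen_v3, chromosome 3, 168695539 to 168839001, plus strand) encodes a lipoxygenase that can act as a 9- and as a 13-lipoxygenase. It was at 52.0 and 49.3 RPM in the *dcl1-2* P3 libraries and at 3.62 and 3.13 RPM in the wild-type P3 libraries. Both mutant primordia libraries were thus far above both wild-type ones, with a fold of 15.6 (log2 fold change 3.96, SE 0.25) that is described only. In the CZ it was at 2.75 and 2.69 RPM in *dcl1-2* and at 7.91 and 2.78 RPM in wild type. The mutant CZ, wild-type P3 and wild-type CZ replicate 2 libraries therefore lay together at about the same low level, and only *dcl1-2* P3 left it, apart from the smaller excess in wild-type CZ replicate 1.

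The *lox1* model spans 143463 bases, while those of the other 6 lipoxygenases span 3763 to 16428 bases, and *lox2* has no model ID of its own in the table of names used here, in which *lox2* is the direct neighbour of *lox1*. Reads of *lox1* and *lox2* may therefore be counted together and cannot be told apart here. A model on the opposite strand, GRMZM2G458554 (168836650 to 168838972), lies within the end of *lox1* and had 102 and 83 counts in *dcl1-2* P3, 7 and 2 in wild-type P3, and 53, 0, 0 and 0 in the CZ libraries. These counts are 21.6% and 16.3% as large as those of *lox1* in *dcl1-2* P3, and the counting does not separate the strands of overlapping models.

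*MPI* (GRMZM2G028393, also named *sci1*, chromosome 8, 134463276 to 134464177, plus strand) was detected in 3 of the 8 libraries. It had 59 and 65 counts (6.50 and 6.29 RPM) in *dcl1-2* P3, 0 counts in both wild-type P3 and both wild-type CZ libraries, 4 counts (0.162 RPM) in *dcl1-2* CZ replicate 1 and 0 in *dcl1-2* CZ replicate 2. Set against 3 counts over the pair of wild-type P3 libraries, the limit that a count of 0 allows (0.164 RPM), its level in *dcl1-2* P3 was at least 39.0-fold higher, again as a description. The P3 libraries are shallower than those of the CZ, so the 0 counts of the wild-type CZ, which allow up to 0.0527 RPM, set the tighter limit.

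The reads given to *MPI* cannot be told apart from those of GRMZM2G028656, a model on the opposite strand (134463311 to 134464952) that overlaps it over most of its length. That model had 60 and 65 counts in *dcl1-2* P3 and 4 in *dcl1-2* CZ replicate 1, within 1 count of *MPI* in every library. The level is thus that of the locus and not of 1 strand.

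*lox10* (GRMZM2G015419, chromosome 4, 233625686 to 233629448, plus strand) encodes the plastid 13-lipoxygenase that supplies the green leaf volatiles of maize. It was at 38.8 and 36.7 RPM in *dcl1-2* P3 and at 2.59 and 9.39 RPM in wild-type P3. Both mutant libraries were above both wild-type ones, by 6.72-fold (log2 fold change 2.75, SE 0.37), although the wild-type pair differed between themselves, and without wild-type P3 replicate 2, the higher of the pair, the log2 fold change was 3.89, and without replicate 1 it was 2.11. In the CZ it had 63 counts (2.08 RPM) in wild-type replicate 1 and 0, 0 and 3 counts in the other libraries. An opposite-strand model, GRMZM2G018424 (233626682 to 233629283), covers most of the gene and had 251 and 273 counts in *dcl1-2* P3 beside the 352 and 379 of *lox10*.

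*ts1* (GRMZM2G104843, chromosome 2, 45192092 to 45196460, minus strand), also called LOX8, is the 13-lipoxygenase whose jasmonate sets the sex of tassel flowers. It was scarce everywhere, with 12 and 2 counts (1.32 and 0.194 RPM) in *dcl1-2* P3, 9 and 3 counts (0.931 and 0.348 RPM) in wild-type P3, 1 and 5 counts in *dcl1-2* CZ, and 8 and 3 counts in wild-type CZ. Its group means stayed under 1 RPM, the minimum for a test, and the genotypes overlapped in both tissues.

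*lox3* and *lox4* are close copies that lie side by side on chromosome 1, 3892 bases apart and 259.6 Mb from *DCL1*. *lox3* (GRMZM2G109130, 264200949 to 264205758, plus strand) encodes a 9-lipoxygenase studied in fungal and nematode interactions, and it was at 65.6 and 64.1 RPM in *dcl1-2* P3 and at 60.7 and 40.9 RPM in wild-type P3. The groups did not overlap, but the difference was small (log2 fold change 0.41, SE 0.19) and lay within the spread of the wild-type pair. *lox4* (GRMZM2G109056, 264209651 to 264226078, plus strand) was at 26.9 and 36.8 RPM in *dcl1-2* P3 and at 49.9 and 52.3 RPM in wild-type P3. It is the only one of the 8 genes with both *dcl1-2* P3 libraries below both wild-type ones (log2 fold change −0.61, SE 0.19). The table counts reads that map to 1 place, so reads that both copies share are not in these values.

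*lox5* (GRMZM2G102760, chromosome 5, 12274159 to 12279067, minus strand) encodes a 9-lipoxygenase studied in defence against caterpillars. It was at 83.9 and 78.4 RPM in *dcl1-2* P3 and at 26.5 and 58.5 RPM in wild-type P3. Both mutant libraries were the higher ones, with a log2 fold change of 1.01 (SE 0.25) that was 0.57 without wild-type P3 replicate 1 and 1.65 without wild-type P3 replicate 2. In the CZ the order was the opposite, with 4.40 and 10.1 RPM in *dcl1-2* and 29.8 and 12.5 RPM in wild type.

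*lox6* (GRMZM2G040095, chromosome 2, 4186513 to 4190624, plus strand) encodes an atypical plastid enzyme that acts on fatty acid hydroperoxides. It was at 2.09 and 2.90 RPM in *dcl1-2* P3, between the 0.724 and 4.06 RPM of the wild-type P3 pair, so the genotypes overlapped (log2 fold change 0.16, SE 0.73; −0.59 without wild-type P3 replicate 1 and 1.81 without replicate 2). In the CZ it had 9 and 2 counts in wild type and none in *dcl1-2*, where 0 counts allow up to 0.0600 RPM.

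In P3, both *dcl1-2* libraries were above both wild-type libraries for 5 of the 8 genes, *lox1*, *lox3*, *lox5*, *lox10* and *MPI*. Of the 22498 genes tested in P3, 20.8% had both *dcl1-2* libraries above both wild-type libraries; since the list was drawn up from this contrast, nothing is read from the 5 genes against that share.

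The CZ comparison took no part in the choice of the genes and could be tested. A gene was called when edgeR's quasi-likelihood test gave a Benjamini-Hochberg adjusted p under 0.05 over all genes tested and a log2 fold change of at least 1 in either direction, and this held for 0.246% of the 19897 genes that entered the CZ fit. Of the 8 genes, *lox1*, *lox4*, *lox5* and *lox10* passed the minimum of 1 RPM in a group, *lox10* only through wild-type CZ replicate 1, and 0 of these 4 were called. At an unadjusted p under 0.05 there were 2, *lox5* and *lox10*, beside 10.5% of all genes tested, and DESeq2 called 1, *lox5*, beside 1.04%. Since *lox10* reached the minimum only in wild-type CZ, the group where it is high, nothing is read from its p-values or from the count of 2.

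*lox5* was 7.27 ± 4.06 RPM in *dcl1-2* CZ and 21.1 ± 12.3 RPM in wild-type CZ (SD, n = 2 each), or −1.56 on the log2 scale (SE 0.43, edgeR adjusted p = 0.188). The adjusted p was 1.31e-05 with no filter on low counts, 0.0210 in DESeq2, 2.9e-04 when wild-type CZ replicate 2 was left out and 0.0466 when *dcl1-2* CZ replicate 2 was. When wild-type CZ replicate 1, the library that stood apart, was left out, the log2 fold change was −0.82 and the adjusted p 0.475. *lox1* had a log2 fold change of −0.996 (SE 0.51, adjusted p = 0.536), which was −0.076 without wild-type CZ replicate 1. For *lox10* there were 63 counts in wild-type CZ, all in replicate 1, against 3 in *dcl1-2* CZ. The ratio was 18.4 with a counting interval of 6.03 to 91.8. Its log2 fold change was −4.04 (adjusted p = 0.437), or −5.01 without wild-type CZ replicate 2. *lox4* was level (log2 fold change 0.12, SE 0.21, adjusted p = 0.897). Both *dcl1-2* libraries were below both wild-type libraries for 2 of the 4 genes, *lox1* and *lox5*, beside 18.1% of all genes tested.

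**Figure D2:**
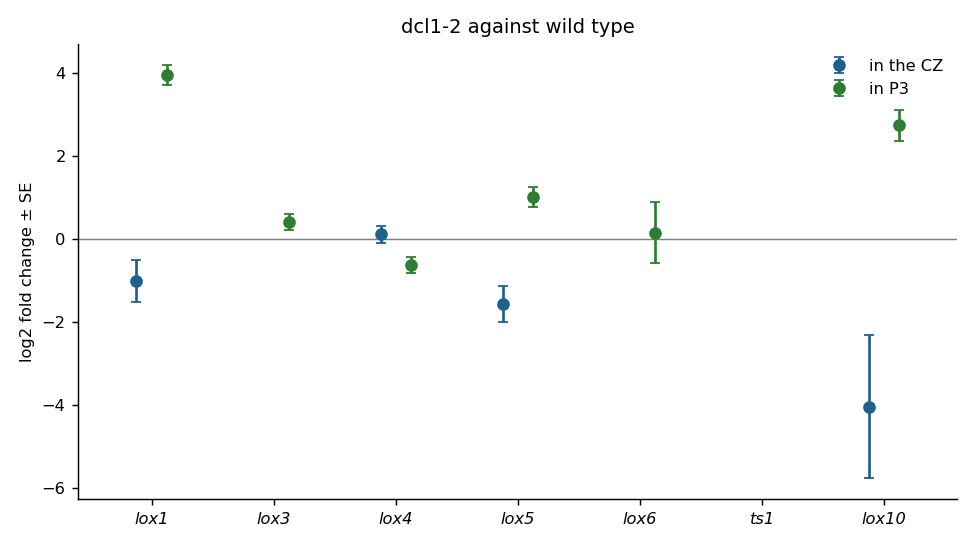
Log2 fold change of *dcl1-2* against wild type (y axis; points, edgeR estimate; bars, SE) in the CZ and in P3 for the lipoxygenase genes (x axis) that passed the minimum level in that tissue; *ts1* passed in neither. *lox1* and *lox5* lie above 0 in P3 (3.96 and 1.01) and below 0 in the CZ (−0.996 and −1.56), while *lox4* is near 0 in the CZ and at −0.61 in P3.

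How the genes differ between the tissues was tested in each genotype in a model of all 8 libraries, for the 5 genes other than *lox1* and *MPI* that passed the minimum level. The tissue and the way the libraries were read, from 1 end in the CZ and both ends in P3, cannot be told apart. In wild type, *lox3*, *lox6* and *lox10* were called higher in P3 than in the CZ, as were 25.6% of all genes tested. In *dcl1-2*, *lox3*, *lox5*, *lox6* and *lox10* were called higher in P3, as were 27.8% of all genes tested. *lox3* and *lox6* in wild type, and *lox3*, *lox6* and *lox10* in *dcl1-2*, reached the minimum level only in P3, the group where they are high. Nothing is therefore read from how many genes were called, nor from the adjusted p-values given below for these genes in those comparisons. The *dcl1-2* P3 libraries are also those on which the list was drawn up, so each adjusted p between the *dcl1-2* tissues is given as a description only.

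*lox3* was at 0.198 and 0.563 RPM in wild-type CZ and at 60.7 and 40.9 RPM in wild-type P3, a log2 fold change of 6.87 (SE 0.42, adjusted p = 3.6e-08; 6.25 without wild-type CZ replicate 1 and 7.78 without replicate 2). The *dcl1-2* tissues differed by 7.14 (SE 0.42, adjusted p = 1.3e-08), or by 7.95 without *dcl1-2* CZ replicate 1 and 6.62 without *dcl1-2* CZ replicate 2. Its neighbour *lox4* was at 24.2 and 24.6 RPM in wild-type CZ and at 49.9 and 52.3 RPM in wild-type P3. That difference passed the adjusted p but not the fold cutoff (log2 fold change 0.85, SE 0.20, adjusted p = 0.00264), and in *dcl1-2*, where the CZ libraries at 30.6 and 23.7 RPM overlapped the P3 libraries at 26.9 and 36.8 RPM, the difference was 0.13 (SE 0.20, adjusted p = 0.603). The order of the *lox4* groups was wild-type P3 first, with the other 3 groups not separated beyond their spread, whereas that of *lox3* was P3 of either genotype, then the CZ of either genotype.

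*lox5* differed between the tissues by a log2 fold change of 3.37 in *dcl1-2* (SE 0.44, adjusted p = 1.96e-05). This was 2.90 without *dcl1-2* CZ replicate 1 and 4.10 without *dcl1-2* CZ replicate 2. In wild type the CZ libraries, at 29.8 and 12.5 RPM, and the P3 libraries, at 26.5 and 58.5 RPM, overlapped, with 0.79 (SE 0.41, adjusted p = 0.110). That value moved both ways with the library left out, to 1.51 (adjusted p = 0.00746) without wild-type CZ replicate 1, 0.31 (0.530) without wild-type CZ replicate 2, 1.22 (0.0448) without wild-type P3 replicate 1 and 0.16 (0.787) without wild-type P3 replicate 2. Its *dcl1-2* P3 level was the highest of the 4 groups and its *dcl1-2* CZ level the lowest, with the wild-type groups between them and not separated.

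For *lox6* the wild-type tissues differed by 3.38 (SE 1.05, adjusted p = 0.0142), which did not pass without wild-type CZ replicate 2 (2.76, adjusted p = 0.0709) and was 4.59 with wild-type CZ replicate 1 left out and 4.13 with wild-type P3 replicate 1 left out. Of its 42 counts in wild-type P3, 35 were in replicate 2, without which it was under the minimum level and not tested. In *dcl1-2*, its 49 counts in P3 against 0 in the CZ were at least 41.6-fold higher than the limit of 3 counts over the CZ pair (adjusted p = 6.05e-04). For *lox10* the wild-type difference of 2.26 (SE 0.90, adjusted p = 0.0412) was lost in DESeq2 (adjusted p = 0.358), in the fit of the 4 wild-type libraries alone (0.110), with the replicate number as a block (0.0580) and without each of 4 libraries, wild-type CZ replicate 2, wild-type P3 replicate 2 and either *dcl1-2* P3 replicate (0.0741 to 0.427). Without wild-type CZ replicate 1 no count was left in wild-type CZ, and without wild-type P3 replicate 1 the difference was 2.89. In *dcl1-2* the 731 counts of *lox10* in P3 against 3 in the CZ gave a ratio of 627 with a counting interval of 214 to 3050, and the adjusted p was 3.7e-05.

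The tissue values of *lox1* and *MPI* are given without a test. *lox1* was 50.6 ± 1.90 RPM in *dcl1-2* P3 and 2.72 ± 0.0369 RPM in *dcl1-2* CZ (SD, n = 2 each), a log2 fold change of 4.11 (SE 0.41), against −0.86 (SE 0.41) in wild type, or 0.050 without wild-type CZ replicate 1. *MPI* had 124 counts in *dcl1-2* P3 and 4 in *dcl1-2* CZ, a ratio of 79.8 with a counting interval of 30.4 to 298. Whether the effect of *dcl1-2* differs between P3 and the CZ was not tested for any of the 8 genes.

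**Figure D3:**
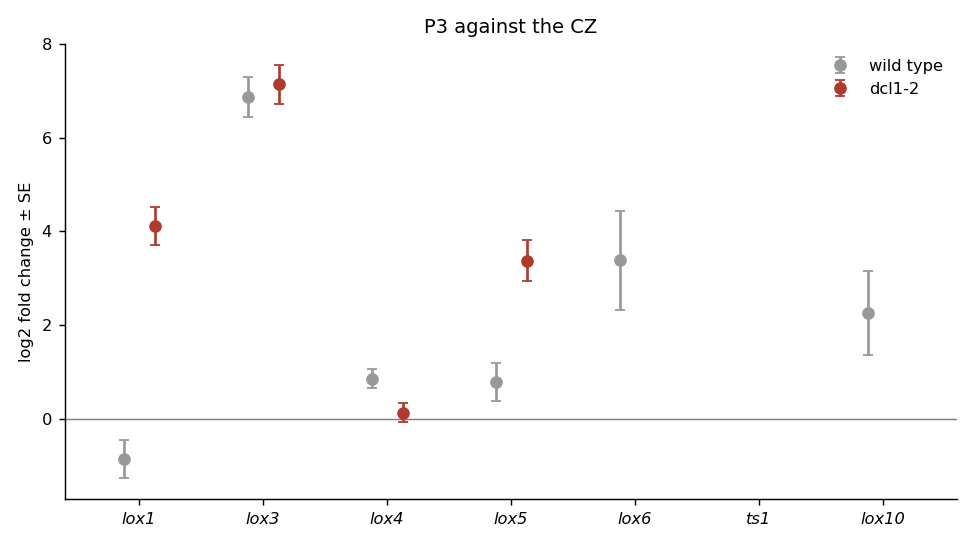
Log2 fold change of P3 against the CZ (y axis; points, edgeR estimate; bars, SE) in wild type and in *dcl1-2* for the lipoxygenase genes (x axis); *ts1* was under the minimum level, and *lox6* and *lox10* in *dcl1-2* are left out because their CZ groups had 0 and 3 counts. *lox3* is at about 7 in both genotypes (6.87 and 7.14), while *lox1* is at 4.11 and *lox5* at 3.37 in *dcl1-2* and both are near or below 1 in wild type.

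Around these genes, 52 further genes of 4 lists were followed: 4 other lipoxygenases, 13 genes of jasmonate and oxylipin synthesis, 22 of jasmonate signalling and 13 of wound and defence responses. Of the 32 that passed the minimum level in P3, 6 were called higher and 1 lower in *dcl1-2*, beside 2.18% of all genes called higher and 0.587% called lower in P3. Their median log2 fold change was 0.35, beside −0.016 over all genes tested, and 4 more genes passed the adjusted p with a fold under the cutoff. The lists were drawn up around *lox1* and *MPI* with their rise in this same comparison known. Nothing is therefore read from these counts or this median against all genes. Called higher were *lox7*, *aos1*, *aoc1*, *TIFY6*, *BX5* and *bx8*, and called lower was *bx1*, while the other 25 were not called. The *bx* genes serve benzoxazinoid synthesis, a defence pathway of maize seedlings. The summed level of 4 epidermal markers was 371 and 372 RPM in wild-type P3 and 491 and 506 RPM in *dcl1-2* P3, and its part in these differences was not tested.

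Among the other lipoxygenases, 1 of 3 tested in P3 was called. *lox7*, another 13-lipoxygenase, had 58 counts in *dcl1-2* P3 (0.771 and 4.94 RPM) and 2 in wild-type P3 (0.207 and 0 RPM), a ratio of 27.3 with a counting interval of 7.23 to 231 (adjusted p = 0.0424). The call was lost with all 8 libraries in 1 fit (0.144) and without wild-type P3 replicate 2 (0.132). *lox7* reached the minimum level only in *dcl1-2* P3, and without *dcl1-2* P3 replicate 2, which held most of its counts, it was not tested. *lox11* was at 175 and 158 RPM in *dcl1-2* and at 113 and 124 RPM in wild type, and passed the adjusted p (0.0274) with a log2 fold change of 0.56 (SE 0.14). It did not pass with all 8 libraries in 1 fit (adjusted p = 0.0547) or without TMM scaling (0.0513). *lox9* was at 29.4 and 30.4 RPM in *dcl1-2* and at 31.6 and 27.1 RPM in wild type, with no separation.

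In jasmonate synthesis, 2 of 6 genes tested were called, and they encode consecutive steps after the lipoxygenase. The allene oxide synthase gene *aos1* was at 53.8 and 53.4 RPM in *dcl1-2* P3 and at 16.7 and 10.7 RPM in wild-type P3, a log2 fold change of 2.03 (SE 0.23, adjusted p = 7.2e-05), and it was not called in the model of all 8 libraries (adjusted p = 0.148). The allene oxide cyclase gene *aoc1* was at 83.5 and 127 RPM in *dcl1-2* and at 27.1 and 37.3 RPM in wild type, a log2 fold change of 1.78 (SE 0.21, adjusted p = 9.3e-05). A second cyclase gene, *aoc2*, passed the adjusted p only (0.98, SE 0.22, adjusted p = 0.0191).

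The other genes of this route that were tested did not pass. *aos2* was at 71.0 and 79.2 RPM in *dcl1-2* P3 and at 94.9 and 82.8 RPM in wild-type P3 (log2 fold change −0.18, adjusted p = 0.604). The reductase genes *opr7* and *opr8*, which serve jasmonate synthesis in maize, had log2 fold changes of 0.22 (adjusted p = 0.584) and −0.12 (adjusted p = 0.853). The remaining 7 genes of the list were under the minimum level in P3.

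In jasmonate signalling, 1 of 15 genes tested was called. *TIFY6* was at 88.2 and 76.0 RPM in *dcl1-2* P3 and at 41.5 and 42.2 RPM in wild-type P3 (log2 fold change 1.04, SE 0.16, adjusted p = 0.00111), which is close to the fold cutoff and under it without TMM scaling (0.97) and without *dcl1-2* P3 replicate 1 (0.93). The MYC2 gene *MYC2a* was at 94.5 and 107 RPM in *dcl1-2* and at 53.3 and 52.3 RPM in wild type, which falls just short of the cutoff (log2 fold change 0.998, SE 0.15, adjusted p = 0.00106). Its adjusted p was 0.0924 in the fit of all 8 libraries. The other 13 had log2 fold changes from −0.37 to 2.69, and none of them passed the adjusted p.

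In the wound and defence list, 2 of 8 genes tested were called higher and 1 lower. *BX5*, a cytochrome P450 gene of benzoxazinoid synthesis, was at 255 and 248 RPM in *dcl1-2* P3 and at 82.1 and 89.5 RPM in wild-type P3 (log2 fold change 1.62, SE 0.13, adjusted p = 2.2e-06). *bx8*, which encodes a glucosyltransferase of the same pathway, was at 109 and 151 RPM in *dcl1-2* and at 44.6 and 50.7 RPM in wild type (1.52, SE 0.17, adjusted p = 8.1e-05). *bx1*, whose enzyme makes the indole that starts the pathway, was called lower, but most of its 190 wild-type counts came from 1 library.

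That library was wild-type P3 replicate 2, which held *bx1* at 21.2 RPM, while wild-type P3 replicate 1 had 0.724 RPM and *dcl1-2* P3 had 0.330 and 0 RPM. The ratio of wild type to *dcl1-2* was 67.2 with a counting interval of 22.7 to 329 (adjusted p = 0.0154), DESeq2 did not call it (adjusted p = 0.227), nor did the fit of all 8 libraries (0.151), and without that library *bx1* was under the minimum level and not tested. *BX4* passed the adjusted p only (0.81, SE 0.17, adjusted p = 0.0123), and did not in the fit of all 8 libraries (adjusted p = 0.323). *igl1*, which encodes a second indole-making enzyme, was level (0.026, adjusted p = 0.952). The wound-response genes *wip1*, *tps10* and *tps23*, for a Bowman-Birk proteinase inhibitor and terpene synthases, and the pathogenesis-related gene *PR-5*, had 0 counts in all 8 libraries. In *dcl1-2* P3 *MPI* was thus detected, while *wip1* was not at this depth. Other proteinase inhibitor genes were not followed here.

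**Figure D4:**
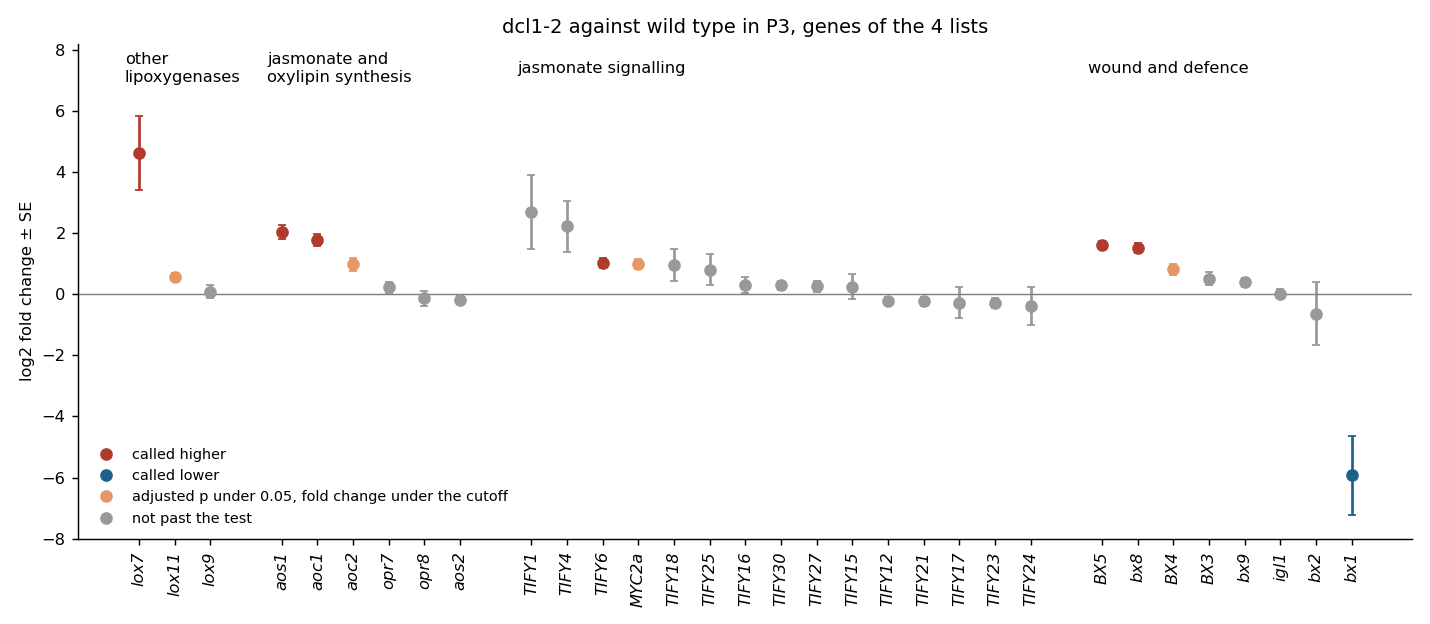
Log2 fold change of *dcl1-2* against wild type in P3 (y axis; points, edgeR estimate; bars, SE) for the 32 genes of the 4 lists that passed the minimum level (x axis), coloured by the outcome of the test. The 6 genes called higher run from *TIFY6* (1.04) to *lox7* (4.63), *bx1* (−5.92, from 3 counts in *dcl1-2*) is called lower, and most of the signalling genes lie near 0.

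In the CZ, 0 of the 30 list genes tested were called by edgeR, with 7 at an unadjusted p under 0.05 and 2 called by DESeq2, *bx2* and *bx9*, beside the 10.5% and 1.04% of all genes given above. All 7 were lower in *dcl1-2*: *bx9*, *bx2*, *aos2*, *lox11*, *bx1*, *BX5* and *MYC2a*. Of these, *bx1*, *bx2* and *aos2* reached the minimum level only in wild-type CZ, the group where they are high. Among all genes called in the CZ, 28 were lower and 21 higher by edgeR, and 137 and 69 by DESeq2. Nothing is therefore read from how many list genes passed in the CZ or from their shared direction. *bx9*, which had the smallest p, was at 10.7 and 15.4 RPM in *dcl1-2* CZ and at 32.5 and 24.7 RPM in wild-type CZ (log2 fold change −1.16, SE 0.25, adjusted p = 0.0907). Several of the others again rest on wild-type CZ replicate 1, which held *bx1* at 4.09, *bx2* at 3.20, *BX5* at 19.1 and *aos2* at 4.48 RPM, where the other 3 CZ libraries had at most 0.159, 0.263, 5.94 and 1.16 RPM. When that library was left out 0 were called, and when wild-type CZ replicate 2 was left out 6 were.

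Among 4913 genes that reached a mean of 1 RPM in some group and whose group means ranged over at least 2 log2 units, those most like *lox1* over the 8 libraries, by Pearson's r of the log2 of TMM-scaled RPM plus 1, were its own opposite-strand model GRMZM2G458554 (r = 0.986), the *MPI* locus (0.959), GRMZM2G054123 (0.959) and GRMZM2G042789 (0.957). GRMZM2G054123 was at 225 RPM in *dcl1-2* P3 on average and at 46.8 to 62.4 RPM in the other groups. The genes most like *MPI* were its own opposite-strand model, GRMZM5G803153 (0.983), AC192381.3_FG004 (0.981), the bZIP transcription factor gene *bZip112* (0.978) and GRMZM5G871801 (0.976). *bZip112* averaged 32.6 RPM in *dcl1-2* P3 and 1.88 to 3.41 RPM elsewhere. These likenesses are descriptions over 8 points that fall into 4 groups. Both *lox1* and *MPI* were listed for being high in *dcl1-2* P3, so the likeness between them follows from that choice and is not a separate result.

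For *lox4* the nearest patterns were GRMZM5G897067 (r = 0.930), GRMZM2G308503 (0.916), GRMZM2G105348 (0.913), GRMZM5G872392 (0.903) and GRMZM2G062160 (0.8997), each highest in wild-type P3. GRMZM2G105348 averaged 109.6 RPM in wild-type P3 but 6.22 RPM in *dcl1-2* P3, and GRMZM5G872392 61.6 and 3.73 RPM. The genes compared had to range over at least 2 log2 units, which *lox4* itself did not. Their larger differences therefore follow from that filter and are not a separate result. For *lox5* they were GRMZM2G029815 (r = 0.984), GRMZM2G157616 (0.983), GRMZM2G157536 (0.968), GRMZM2G392477 (0.967) and GRMZM2G160506 (0.964), each highest in *dcl1-2* P3 and lowest in *dcl1-2* CZ, as *lox5* was. GRMZM2G157616, for example, averaged 64.6 RPM in *dcl1-2* P3, 44.1 RPM in wild-type P3, 24.0 RPM in wild-type CZ and 9.55 RPM in *dcl1-2* CZ.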

How the data were processed

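Samples were grouped by the genotype, tissue and replicate of the labels. Raw counts per gene were deposited by the authors, who used Trimmomatic for trimming, TopHat for alignment to B73 RefGen_v3 and HTSeq for counting reads that map to 1 place; 8 deposited RPM columns were not used, and 1 blank count was read as 0. Whether P3 counts are of reads or pairs is not given in the sources used here. RPM here is the count over the library's total. A gene was tested when its mean reached 1 RPM in a group compared, with edgeR 4.0.16 (R 4.3.3) after TMM scaling; DESeq2 1.42.0, other scalings, no filter, left-out libraries and a replicate block were alternatives. SE is the log2 fold change over the square root of F. Where a group had 0 counts, a floor of 3 counts over the group was used, and intervals (95%, exact binomial) and floors cover counting error only. Gene names came from a RefSeq table (Zm-B73-REFERENCE-NAM-5.0) that named 18883 IDs. The genes and lists were chosen with earlier results of these data known. Named genes are the 8 themselves, up to 4 called genes of each list with those the text says did not pass, up to 5 genes of most similar pattern and *DCL1*. P-values rest on the spread between 2 pools of apices a group, estimated with information shared over genes. In the tissue comparisons the groups not compared add to that estimate too. The fits were tested on simulated data. Matplotlib 3.10.9 drew the plots.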

Additional observations from a re-analysis of the deposited data

Results flagged for a closer look

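Among the 8 genes and the 4 lists, 7 genes had both *dcl1-2* libraries above both wild-type libraries in P3 and below them in the CZ, and 2 had the opposite pattern; the difference between the tissues was not tested. The log2 fold changes of *dcl1-2* against wild type were 3.96 in P3 and −0.996 in the CZ for *lox1*, and 1.01 and −1.56 for *lox5*, but without wild-type CZ replicate 1, the library that stood apart, those CZ values were −0.076 and −0.82. They were 0.56 and −0.69 for *lox11*, 1.78 and −0.47 for *aoc1*, 0.22 and −0.62 for *opr7*, 0.998 and −0.81 for *MYC2a*, and 0.39 and −1.16 for *bx9*. The opposite pattern was that of *TIFY12*, with −0.21 in P3 and 0.25 in the CZ, and *TIFY23*, with −0.28 and 0.20. For these list genes no CZ value without that library is given, so how far they rest on it is not shown. Of the genes tested in both tissues, up in P3 and down in the CZ were 2 of the 4 lipoxygenases, 5 of the 28 list genes and 5.13% of all genes, while down in P3 and up in the CZ were 0, 2 and 7.80%. The 8 genes and the lists were chosen with the rise of *lox1* and *MPI* in *dcl1-2* P3 known. Nothing is therefore read from these counts against the shares of all genes. Of the 9 CZ values 0 passed the edgeR test. At an unadjusted edgeR p under 0.05 were 4 (*lox5*, *lox11*, *MYC2a* and *bx9*), beside 10.5% of all genes tested, and DESeq2 called 2 (*lox5* and *bx9*), beside 1.04%. The 9 genes were picked for CZ libraries that did not overlap between the genotypes, which favours small p-values. Nothing is therefore read from these counts.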

How the results depend on the processing

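The CZ count of called genes, 49 by the main settings, was 433 without the filter, 206 in DESeq2, 198 with the replicate block, 190 with all 8 libraries in 1 model and 42 to 449 when a library was left out, with 121 without wild-type CZ replicate 1. The list genes called in the CZ went from 0 to 5, 2, 2 and 1 under the first 4 of these and to between 0 and 6 with a library left out. In P3 the count of 622 was 1012 by adjusted p alone and 314 with all 8 libraries in 1 model (442 to 779 with a library left out), and the 7 list genes were 11 and 4 (5 to 9). The replicate numbers do not pair the samples (correlation of deviations 0.069 in the CZ and 0.018 in P3); the block gave 886 calls in P3, 10172 and 11210 in the tissue comparisons in place of 10302 and 11349, and of the genes named it ended only the call of *lox10* in wild type. Leaving out a library gave 9419 to 10360 calls in wild type and 10518 to 11532 in *dcl1-2* between tissues. *lox4*, which was not called, changed sign in the CZ without *dcl1-2* CZ replicate 1 and between the *dcl1-2* tissues without *dcl1-2* CZ replicate 2 or *dcl1-2* P3 replicate 2, with log2 fold changes of −0.079 to 0.29 and −0.12 to 0.32 over the libraries left out. Without TMM scaling the median of all genes between the tissues was 0.225 in wild type and 0.11 in *dcl1-2*, beside 0.014 and 0.006 with it, and *lox4* then passed the cutoff in wild type (1.06). The cause of these shifts was not tested, and groups of 2 libraries limit the precision throughout.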
